A study of Mus musculus with 18 samples.

Results

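Hyaluronan is a long, unsulfated sugar chain that cells spin into the space around them, and the 9 genes described here make it, cut it or bind it. They were taken by name: the synthases Has1 and Has2, the depolymerising protein Cemip, the hyaluronidases Hyal1 and Hyal2, the receptor Cd44, the proteoglycan Vcan, the heavy-chain transferase Tnfaip6 and the link protein Hapln1. All 9 were found by symbol among the 30583 genes of the count table. RNA was sequenced from the left ventricle of 18 male C57BL/6JR mice aged 12 weeks, 1 library per mouse, in 6 groups of 3. In 5 groups the left anterior descending coronary artery was tied to cause an infarction, and the heart was taken after 10 min or after 1, 6, 24 or 72 h. In the sham group, labelled 0 h, the thread was passed without being tied. The design text gives all mice 1 pentobarbital dose and the sham mice an otherwise equal operation. The labels of the ligated mice, however, give a dose that ranges from 50 to 63 mg/kg and is higher in each later group, so by them dose and time cannot be told apart. These doses follow the order of the labels within groups too: 50, 50 and 51 at 10 min, 52, 53 and 54 at 1 h, and on to 61, 62 and 63 at 72 h. Whether the labels or the design text hold the dose given is not known. The single set of sham hearts was the reference for every time. The labels call the cell type cardiomyocytes, but the protocol describes no separation of cells.

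Hyaluronan synthases sit in the plasma membrane, join UDP-glucuronic acid to UDP-N-acetylglucosamine and push the growing chain outwards. Outside the cell the chain holds water and carries versican and link protein, and the secreted protein made from Tnfaip6 (TSG-6) ties it to the heavy chains of inter-alpha-inhibitor. Long chains are cut at or near the cell surface by HYAL2 and CEMIP, and in the lysosome by HYAL1, and CD44 tethers the polymer to leukocytes and stromal cells. In injured tissue, including the heart, a hyaluronan-rich provisional matrix is known to form before collagen is laid down.

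The libraries held 18199172 to 25062351 counts. Levels are given as CPM, counts per 1000000 counts of the library after scaling by the trimmed mean of M values (TMM), and as mean ± SD of 3 mice. Calls come from edgeR's quasi-likelihood test: a change was called where the Benjamini-Hochberg adjusted p, taken over 16311 genes, was under 0.05. Markers of other cell types were present in every group. In bulk tissue, fewer cells of a type and less RNA per cell cannot be told apart. The summed level of 6 cardiomyocyte markers ran from 47763 to 52011 CPM in sham and from 13179 to 17181 CPM at 72 h, where 6 of 6 were called lower. At 72 h, 6 of 6 fibroblast markers were called higher (681 to 717 CPM summed in sham, 4237 to 5320 at 72 h), as were 5 of 5 macrophage markers (180 to 202 in sham, 2583 to 3422 at 72 h). Col1a1 made up most of the fibroblast sum at 72 h (mean 74.4 CPM in sham, 3549 at 72 h). Dcn, the largest of these markers in sham, went from 412 to 514 CPM. Already at 24 h, 5 of 5 macrophage markers were called higher (444 to 555 CPM summed) and 4 of 6 cardiomyocyte markers lower (20692 to 32955 CPM summed). Neutrophil markers, at 2.31 to 3.58 CPM summed in sham, were called higher in 5 of 5 at 6 h (96.6 to 733 CPM) and at 24 h (35.1 to 652 CPM). No marker of these 4 lists was at 0 in a whole group. Some libraries stood apart: the 6 h replicate 1 had the highest neutrophil sum and an atrial marker sum of 172 CPM, against at most 3.41 CPM in the other libraries, and the 24 h replicate 3 had the neutrophil sum of 652 CPM. That 24 h library also had the lowest cardiomyocyte sum of its group (20692 CPM, against 32045 and 32955). Its macrophage sum was the highest of the group (555 CPM, against 444 and 446). The 72 h replicate 1 stood apart in mesothelial markers, which line the heart's surface, with a sum of 57.9 CPM against at most 23.1 CPM in any other library; 3 of 5 were called higher at 72 h. The part of cell composition in the results below was not tested.

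At 10 min and at 1 h, edgeR called 0 of the 8 hyaluronan genes that could be tested (background: 0.0736% and 0.294% of all genes tested). At an unadjusted p under 0.05, 0 of them differed at 10 min and 1 at 1 h, and DESeq2 and limma called 0 at both times. At 6 h, 6 were called higher and 0 lower than in sham, against 16.3% of all genes called higher and 28.4% called in either direction. At 24 h, 6 were higher and 1 lower, with 43.8% of all genes called (23.7% higher, 20.2% lower). At 72 h, 6 were higher and 0 lower, with 66.4% of all genes called (34.2% higher). The median log2 fold change of the 8 genes was 0.28 at 10 min, 0.19 at 1 h, 2.28 at 6 h, 2.41 at 24 h and 3.08 at 72 h, against -0.01 to 0.03 over all genes tested. With Cemip, which had no count in sham, set at its lower bound, or at 0 where no bound exists, the 6 h median was 1.52 and the 24 h median 2.23. An F test over the 6 groups called 8 of 8, in a table where it called 78.4% of genes. The ninth gene, Hapln1, had too few counts to be tested.

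**Figure D1:**
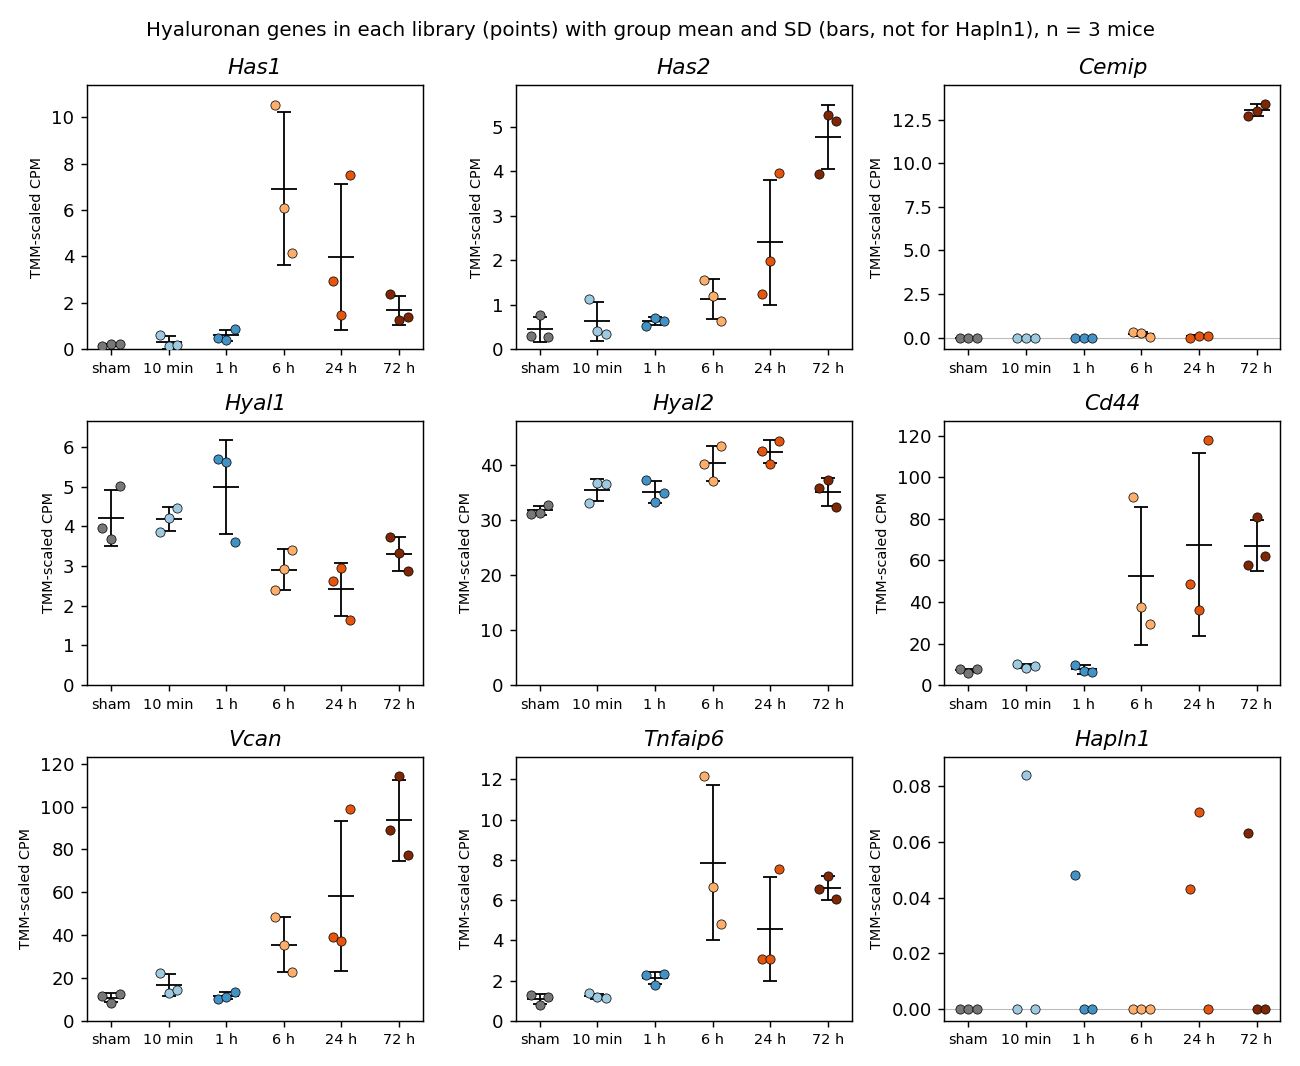
TMM-scaled CPM of the 9 hyaluronan genes (vertical axis, one scale per gene) in each of the 18 libraries, by group (horizontal axis); points are mice, long ticks are group means and bars are SD, n = 3, and for Hapln1 only points are drawn. Has1 was highest at 6 h (4.15 to 10.5 CPM), Has2 at 72 h (3.94 to 5.27 CPM), and Cemip stood near 0 until 72 h (12.7 to 13.4 CPM).

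The synthases rose at different times. Has1 was almost silent in sham hearts and was highest at 6 h, while Has2 climbed more slowly and was highest at 72 h. In the 3 sham libraries Has1 stood at 0.152, 0.207 and 0.222 CPM, from 3 to 5 counts a library. It stood at 0.623, 0.126 and 0.168 CPM at 10 min and at 0.483, 0.415 and 0.875 CPM at 1 h. At 6 h the libraries gave 10.5, 6.08 and 4.15 CPM. These 3 values lie above every library of the earlier groups. At 24 h they were 2.93, 1.49 and 7.53 CPM, and at 72 h 2.40, 1.25 and 1.37 CPM, all above sham. The change against sham was 5.11 on the log2 scale at 6 h (SE 0.69, 34.5-fold, edgeR adjusted p = 7.79e-05). It was 4.29 at 24 h (SE 0.70, adjusted p = 1.94e-04) and 3.06 at 72 h (SE 0.73, 8.37-fold, adjusted p = 0.00146). From 6 h to 72 h Has1 fell by 2.04 on the log2 scale (SE 0.50, adjusted p = 0.00208), with no overlap between the groups. The 72 h replicate 1, highest in mesothelial markers, was also the highest of its group for Has1; without it the change was 2.71 against sham (adjusted p = 0.00653) and -2.39 against 6 h (adjusted p = 0.00264). The difference of -1.23 from 24 to 72 h was not called (adjusted p = 0.0534), and the groups overlapped; it was called by DESeq2 (adjusted p = 0.0416) and when 10 min replicate 1, 6 h replicate 1 or 3, 24 h replicate 2 or 72 h replicate 1 was left out (adjusted p = 0.00649 to 0.0464). Without 24 h replicate 3 it shrank to -0.40 (adjusted p = 0.468). The 24 h mean of 3.98 ± 3.15 CPM became 2.21 CPM without replicate 3, which stood apart in neutrophil, macrophage and cardiomyocyte markers. The log2 change against sham then stood at 3.46 (adjusted p = 2.76e-04). The difference of 24 h from 6 h, -0.82 and not called with all libraries (adjusted p = 0.227), then became -1.65 (adjusted p = 0.00982). Over the 18 fits that leave out 1 library, this difference ran from -1.65 to -0.39 and was called in 1. Leaving out 6 h replicate 1 took the 6 h mean from 6.93 to 5.12 CPM. The 6 h change against sham was then 4.68 (edgeR adjusted p = 2.47e-04).

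Has1 lies on chromosome 17, from 17843323 to 17855205 on the minus strand of GRCm38. Its RefSeq promoter is shown because it holds the one match, in any of the 8 members with a promoter entry, to a cyclic AMP response element (CRE). The 250 bases before the start (chr17:17855189-17855438, minus strand, RefSeq, GRCm38.p6) are printed with that match, TGACGTCA, in capitals. It lies 83 to 76 bases before the start, and this motif was added to the search after the sequence had been seen.

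Has1: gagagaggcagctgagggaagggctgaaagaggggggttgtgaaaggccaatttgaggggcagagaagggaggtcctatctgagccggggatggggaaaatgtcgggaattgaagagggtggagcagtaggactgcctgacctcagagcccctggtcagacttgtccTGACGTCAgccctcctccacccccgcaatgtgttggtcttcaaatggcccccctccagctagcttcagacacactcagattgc

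The palindrome TGACGTCA occurs in 1.55% of 32851 RefSeq promoter windows of that length, searched on both strands. The match is a description of the letters and says nothing of binding. No promoter is shown for Has2.

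Has2 makes most of the hyaluronan of the embryonic heart and is required there for the endocardial cushions. Its sham libraries held 0.303, 0.778 and 0.267 CPM. The 10 min libraries held 1.12, 0.420 and 0.335 CPM, and those at 1 h 0.531, 0.711 and 0.641 CPM. At 6 h the values were 1.55, 1.20 and 0.639 CPM, of which the lowest lies inside the sham range. At 24 h they were 1.25, 1.98 and 3.97 CPM and at 72 h 3.94, 5.27 and 5.12 CPM, in both groups above every sham library. The log2 change of 1.33 at 6 h (SE 0.53) was not called (edgeR adjusted p = 0.0691). Has2 was higher than in sham by 2.41 at 24 h (SE 0.49, 5.31-fold, adjusted p = 8.75e-04) and by 3.42 at 72 h (SE 0.48, 10.7-fold, adjusted p = 5.07e-06). From 6 h to 72 h it rose by 2.08 (SE 0.43, adjusted p = 3.32e-04), the direction opposite to Has1 over the same interval. The step from 24 to 72 h was 1.01 (SE 0.39, adjusted p = 0.0381) and lost its call in 4 of the 18 fits that leave out 1 library (without 24 h replicate 1 or 2, or 72 h replicate 2 or 3; adjusted p = 0.0950 to 0.168). The 6 h difference from sham was called in 4 such fits (without sham replicate 2, 6 h replicate 3, or 24 h replicate 1 or 3) and by DESeq2 (adjusted p = 0.0417). Has2, on chromosome 15 from 56665627 to 56694539, shares 182 exon bases with the antisense gene Has2os, whose reads cannot be told apart from its own where strand was not used; use of strand is not given in the sources used here. Has2os had at most 16 counts in a library.

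**Figure D2:**
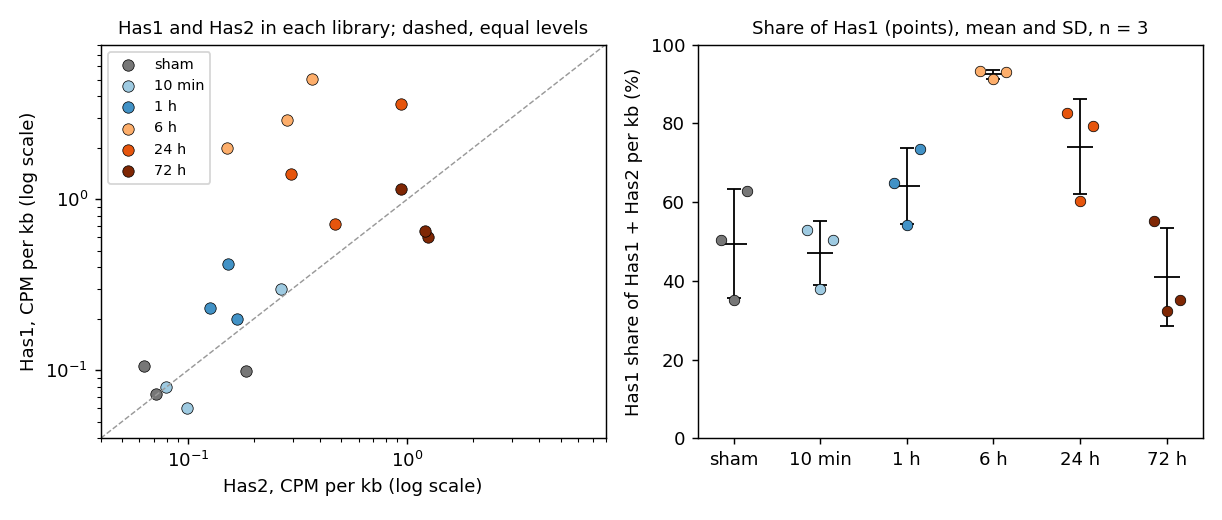
Left, Has1 against Has2 in each library as CPM per kilobase of gene, both axes logarithmic, with a dashed line of equal levels; right, the share of Has1 in the sum of both by group, with points for mice, ticks for means and bars for SD, n = 3. The 6 h libraries lie far above the line (91.1 to 93.2% Has1), and 2 of the 3 libraries at 72 h lie below it (32.5 to 55.2%).

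Scaled per kilobase of gene so that the 2 genes can be compared, Has1 made up 49.4% ± 13.9 of the summed level of both synthases in sham (SD, n = 3). The share was 47.0% ± 8.10 at 10 min, 64.1% ± 9.64 at 1 h, 92.4% ± 1.13 at 6 h, 74.1% ± 12.0 at 24 h and 40.9% ± 12.4 at 72 h. The 6 h libraries, at 93.2, 91.1 and 92.9%, lay above all 15 others. The exact two-sided permutation p for 6 h against sham and for 72 h against 6 h was 0.1 each, the smallest that 3 mice against 3 can give, and 0.15 after adjustment over 3 comparisons. For 72 h against sham it was 0.6. The share depends on the length used for Has1, which was 2090 bases in the deposited values and 4518 exon bases in GENCODE M21. With the longer length, an alternative chosen after seeing the data, Has1 held 31.9% of the sum in sham hearts, 85.0% at 6 h and 24.8% at 72 h.

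Among the genes that break hyaluronan down, Cemip appeared at 72 h, Hyal2 rose by a small amount at 6 and 24 h, and Hyal1 was lower at 24 h. CEMIP (KIAA1199) is needed for hyaluronan depolymerisation by fibroblasts. Cemip had 0 counts in all 9 libraries of the sham, 10 min and 1 h groups, and a count of 0 allows up to 3 counts in each. This limit covers counting error only. At 6 h it had 5, 5 and 1 counts, and at 24 h 0, 3 and 2. At 72 h it had 404, 428 and 422 counts, or 12.7, 13.0 and 13.4 CPM. The 72 h level of 13.1 ± 0.344 CPM varied by 2.63% of its mean between mice, less than any other member in that group. That spread is below the counting error of counts this size, so the ranking does not show that expression was more uniform between mice. Against 3 counts in each sham library it was at least 89.0-fold higher (edgeR adjusted p = 1.05e-08). It was 172-fold above 24 h (log2 7.42, SE 0.45, adjusted p = 4.23e-08) and 65.1-fold above 6 h (log2 6.03, SE 0.40, adjusted p = 3.71e-08), and no library overlapped. The 6 h level, at least 1.34-fold above the limit in sham, was called by edgeR (adjusted p = 0.0101) but not in any of 3 limma fits on FPKM (adjusted p = 0.663 to 0.860). The 24 h level was not called (adjusted p = 0.0561). It was called with library totals (adjusted p = 0.0424), and without 6 h replicate 3 (adjusted p = 0.0376) or 24 h replicate 1 (adjusted p = 0.0157).

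Cemip spans 83932857 to 84086502 on the minus strand of chromosome 7. Its promoter is shown because this gene went from no counts to at least 404 in every 72 h library. The 250 bases before the RefSeq start (chr7:84086506-84086755, minus strand, GRCm38.p6) are printed with a TATAAA match in capitals, 29 to 24 bases before the start.

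Cemip: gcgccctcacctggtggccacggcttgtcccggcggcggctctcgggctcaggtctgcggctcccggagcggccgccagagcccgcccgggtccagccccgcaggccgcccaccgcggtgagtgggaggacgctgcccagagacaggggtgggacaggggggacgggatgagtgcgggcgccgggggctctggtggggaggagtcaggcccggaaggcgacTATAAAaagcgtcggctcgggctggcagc

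TATAAA occurs in 12.4% of all promoter windows of that length on either strand, and in no other member's. The Cemip window is 75.2% G and C, against a mean of 53.2% over all windows.

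Hyal2 encodes a hyaluronidase anchored at the cell surface and was the most abundant of the 9 genes in sham when scaled by length, at 9.65 CPM per kilobase. Its libraries gave 31.2, 31.4 and 32.8 CPM in sham, 33.2 to 36.7 CPM at 10 min and 33.3 to 37.3 CPM at 1 h, small steps above sham that were not called (adjusted p = 0.792 and 0.944). At 6 h they gave 40.3, 37.2 and 43.5 CPM and at 24 h 42.6, 40.3 and 44.4 CPM, all above sham. The 72 h libraries, at 35.9, 37.2 and 32.3 CPM, overlapped sham. The log2 change against sham was 0.34 at 6 h (SE 0.09, 1.27-fold, edgeR adjusted p = 0.00645) and 0.42 at 24 h (SE 0.09, 1.33-fold, adjusted p = 8.96e-04). The 6 h call was lost with library totals (0.23, adjusted p = 0.0854) and in 3 limma fits. At 72 h the change was 0.15 (adjusted p = 0.142). The fall of 0.27 from 24 to 72 h (adjusted p = 0.0127) turned to a rise of 0.12 when libraries were scaled by their totals, and was not called without 72 h replicate 3 (adjusted p = 0.0755). This fall also turned to a rise in 3 limma fits (0.11, 0.12 and 0.11). It was not called by edgeR without the low-count filter (adjusted p = 0.0885) or with only the 6 libraries compared (adjusted p = 0.0664). With library totals the 72 h level was higher than sham by 0.73 (adjusted p = 1.66e-06), a call that TMM scaling did not give. The direction against sham was the same with both scalings, while the direction against 24 h depended on the scaling. Scaling by library totals also moved the median log2 change of all genes at 72 h, from 0.03 to 0.61.

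Hyal1 encodes the lysosomal hyaluronidase. Its sham libraries held 3.94, 3.68 and 5.02 CPM, and those at 1 h 5.70, 5.63 and 3.61 CPM. The values were 2.38, 2.92 and 3.41 CPM at 6 h and 2.63, 2.94 and 1.65 CPM at 24 h, in both groups below every sham library. At 72 h they were 3.72, 3.32 and 2.86 CPM, a range that overlaps sham. At 24 h Hyal1 fell by 0.80 on the log2 scale (SE 0.23, edgeR adjusted p = 0.00934). The differences of -0.54 at 6 h (adjusted p = 0.0893) and -0.35 at 72 h (adjusted p = 0.167) were not called. The 24 h call was lost without sham replicate 3 (adjusted p = 0.0558), without 24 h replicate 3 (adjusted p = 0.0521) and with library totals (adjusted p = 0.0540). It was also lost in limma on log2(FPKM + 1), with a filter (adjusted p = 0.0570) and without (adjusted p = 0.114). Hyal1 shares 1920 exon bases with Naa80 on the same strand and 159 with Hyal3, so its count is uncertain. Naa80 had at most 369 counts in a library and Hyal3 at most 8. It lies on chromosome 9 from 107576927 to 107581710, 4147 bases from Hyal2 (107567945 to 107572779). Per kilobase, Hyal2 stood at 8.78 ± 1.17 times the level of Hyal1 in sham, 16.2 ± 2.75 times at 6 h, 21.7 ± 8.07 times at 24 h and 12.3 ± 1.07 times at 72 h. These ratios use all 3777 bases of Hyal1, shared ones included, and are as uncertain as its count.

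The binding partners Cd44, Vcan and Tnfaip6 were all higher from 6 h onwards. CD44 is the main cell-surface receptor for hyaluronan and is abundant on leukocytes and activated fibroblasts. Cd44 gave 7.53, 5.96 and 7.55 CPM in sham, 8.27 to 10.2 CPM at 10 min and 6.18 to 9.80 CPM at 1 h. It gave 90.4, 37.6 and 29.6 CPM at 6 h, 48.6, 36.3 and 118 CPM at 24 h and 57.9, 81.0 and 62.1 CPM at 72 h. Every library from 6 h on lay above every earlier one, and the highest value at 6 h and at 24 h came from the library with the most neutrophil marker RNA in its group. Both libraries also had the highest macrophage sum and the lowest cardiomyocyte sum of their groups. Against sham the log2 change was 2.90 at 6 h (SE 0.48, 7.45-fold, edgeR adjusted p = 7.75e-04), 3.26 at 24 h (SE 0.49, adjusted p = 1.88e-04) and 3.25 at 72 h (SE 0.49, 9.53-fold, adjusted p = 4.55e-05). Without 6 h replicate 1 the 6 h mean went from 52.5 to 33.6 CPM, and without 24 h replicate 3 the 24 h mean went from 67.6 to 42.4 CPM. Both changes against sham stayed called (log2 2.26, adjusted p = 0.00214, and 2.59, adjusted p = 4.23e-04). With both libraries left out, an alternative added after seeing the data, Cd44 was higher at 72 h than at 24 h by 0.65 (adjusted p = 0.00620), where all libraries gave -0.01 (adjusted p = 0.991). The difference of 72 h from 6 h, 0.36 with all libraries (adjusted p = 0.488), was 0.99 without 6 h replicate 1 (adjusted p = 0.0422).

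Vcan encodes versican, a large chondroitin sulfate proteoglycan whose N-terminal domain binds hyaluronan. Its libraries held 11.8, 8.40 and 12.4 CPM in sham, 22.5, 13.2 and 14.5 CPM at 10 min and 10.4, 11.1 and 13.7 CPM at 1 h. They held 48.4, 35.4 and 23.0 CPM at 6 h, 39.3, 37.2 and 98.9 CPM at 24 h and 89.2, 114 and 77.4 CPM at 72 h. The 10 min libraries all lay above sham, but the log2 change of 0.61 (SE 0.39) was not called (edgeR adjusted p = 0.832). The change was 1.70 at 6 h (SE 0.39, 3.26-fold, adjusted p = 0.00503), 2.42 at 24 h (SE 0.39, adjusted p = 2.81e-04) and 3.10 at 72 h (SE 0.39, 8.59-fold, adjusted p = 8.05e-06). Leaving out 6 h replicate 1 took the 6 h change to 1.42 (edgeR adjusted p = 0.0285). From 6 to 72 h Vcan rose by 1.40 (SE 0.36, adjusted p = 0.00395), with no overlap. The step of 0.68 from 24 to 72 h was not called (adjusted p = 0.127). Without 24 h replicate 3 the 24 h mean went from 58.5 to 38.3 CPM, and that step became 1.28 (adjusted p = 0.00201). At 24 h, 2 of 6 fibroblast markers were called higher and 3 lower, and their part in the Vcan change was not tested.

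Tnfaip6 encodes TSG-6, a secreted enzyme that moves heavy chains onto hyaluronan and is known to be induced by TNF and interleukin-1. It gave 1.26, 0.778 and 1.20 CPM in sham and 1.12 to 1.37 CPM at 10 min. At 1 h it gave 2.27, 1.78 and 2.33 CPM, all above sham and 10 min. The log2 change of 0.97 at 1 h (SE 0.40) was the 1 difference among the 8 genes with an unadjusted p under 0.05 at that time, and was not called (edgeR adjusted p = 0.792). The later libraries gave 12.2, 6.65 and 4.79 CPM at 6 h, 3.06, 3.08 and 7.53 CPM at 24 h and 6.53, 7.22 and 6.05 CPM at 72 h. All 9 lay above every 1 h library. Against sham Tnfaip6 was higher by 2.85 at 6 h (SE 0.38, 7.20-fold, adjusted p = 4.39e-05), by 2.05 at 24 h (SE 0.38, adjusted p = 3.95e-04) and by 2.60 at 72 h (SE 0.37, 6.06-fold, adjusted p = 7.24e-06). Leaving out 6 h replicate 1 took the 6 h change to 2.40 (edgeR adjusted p = 1.33e-04). The lower level at 24 h than at 6 h (-0.80, adjusted p = 0.0773) was not called with all libraries. It was called without 24 h replicate 3 (-1.35, adjusted p = 0.00257) or without 6 h replicate 3 (-1.06, adjusted p = 0.0271). Without 24 h replicate 3 the difference of 72 h from 24 h also went from 0.55 (adjusted p = 0.168) to 1.09 (adjusted p = 0.00316).

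Tnfaip6 lies on the plus strand of chromosome 2 (52038009 to 52056686). Its RefSeq promoter (chr2:52037863-52038112, plus strand, GRCm38.p6) is shown because it holds 3 of the 6 motif matches found in all members. The capitals mark, in order, TTCTGAGAA (STAT, 209 to 201 bases before the start), TGAGTCA (AP-1, 142 to 136) and CATTCC (the reverse complement of the TEAD motif, 8 to 3). The RefSeq start, at base 52038113, lies inside the gene span given above, which comes from GENCODE M21. The TEAD match therefore lies inside that span too.

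Tnfaip6: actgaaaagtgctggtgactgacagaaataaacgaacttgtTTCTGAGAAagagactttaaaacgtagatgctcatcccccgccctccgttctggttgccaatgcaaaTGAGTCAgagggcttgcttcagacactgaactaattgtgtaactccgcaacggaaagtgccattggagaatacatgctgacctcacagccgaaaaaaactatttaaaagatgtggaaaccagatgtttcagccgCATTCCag

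Across all promoter windows, TTCNNNGAA (STAT) occurs in 7.02%, TGANTCA (AP-1) in 6.75% and GGAATG (TEAD) in 12.6%, on either strand. Of the 7 motifs searched, NF-kB (1.41% of windows) and C/EBP (TTGCNNAA, 9.56%) matched in no member, and the windows of Hyal1, Cd44, Vcan and Hapln1 held none of the 7. The sixth match was a TEAD motif in Hyal2, 229 to 224 bases before its RefSeq start. That whole window lies inside the Hyal2 span of GENCODE M21. These matches were not related to the expression values by any test.

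Hapln1 encodes cartilage link protein, which clamps versican to hyaluronan and is abundant in the embryonic heart. It had 8 counts over all 18 libraries and at most 2 in any library, with 0 in every sham and 6 h library, 2 at 10 min, 1 at 1 h, 3 at 24 h and 2 at 72 h. No difference could be detected at this depth. Its neighbour on chromosome 13, Vcan, lies 43659 bases away and held 638 to 9011 counts per group.

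**Figure D3:**
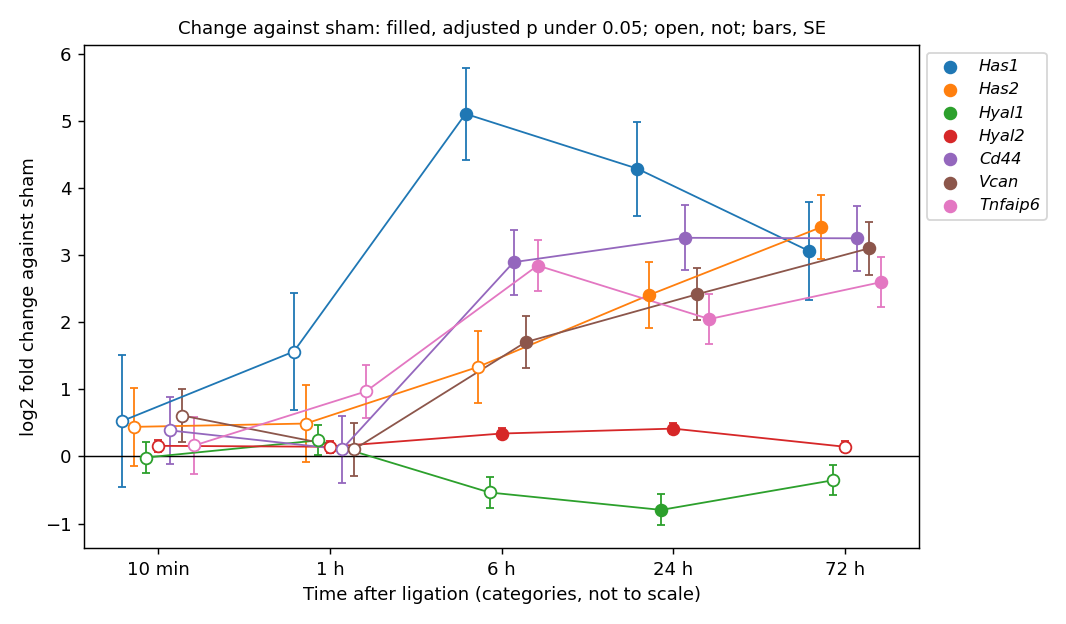
Log2 fold change against sham (vertical axis) of 7 hyaluronan genes at each time after ligation (horizontal axis, categories not to scale), from the edgeR fit; bars are SE, filled points passed the adjusted threshold and open points did not, and Cemip and Hapln1 are left out for want of counts in sham. Has1 peaks at 6 h (5.11) while Has2 and Vcan are highest at 72 h (3.42 and 3.10); Hyal2 at 72 h, 0.15 here, was 0.73 with library totals.

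Between consecutive times, the step from 1 to 6 h had the most called members with all libraries. That order turned in limma without a filter, which called 3 there and 5 from 24 to 72 h, and both steps had 6 with 6 h replicate 1 and 24 h replicate 3 left out. In limma on log2(FPKM + 1) and log2(FPKM + 0.1) with a filter, both steps had 5. Cemip was not called from 1 to 6 h in those fits (limma adjusted p = 0.846 and 0.693). From 10 min to 1 h, edgeR, DESeq2 and limma called 0 of 8 (0.307% of all genes called by edgeR), with 0 at an unadjusted p under 0.05. From 1 to 6 h, 5 were called higher (Has1, Cemip, Cd44, Vcan and Tnfaip6) and 1 lower (Hyal1), with 24.5% of all genes called (14.5% higher, 10% lower). Has1 rose by 3.54 over that interval (SE 0.60, 11.7-fold, adjusted p = 6.12e-04) and Tnfaip6 by 1.88 (SE 0.35, 3.67-fold, adjusted p = 0.00107). Hyal1 fell by 0.78 (adjusted p = 0.0200), a call lost without 1 h replicate 1, 1 h replicate 2 or 6 h replicate 1 (adjusted p = 0.0802 to 0.0911). From 6 to 24 h edgeR and DESeq2 called 0 of 8, 2 had an unadjusted p under 0.05, and 27.8% of all genes were called; limma on FPKM called 1 to 3. From 24 to 72 h, Cemip and Has2 were higher and Hyal2 lower, the last reversed with library totals (50.5% of all genes called, 24.4% higher and 26.1% lower). From 6 to 72 h, Has2, Cemip and Vcan were higher and Has1 lower (63% of all genes called, 31.3% higher and 31.6% lower). The counts for the steps that end at 24 or 72 h change with single libraries and with the scaling, as given in the closing section.

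The order of the 6 groups differed between the genes. For Has1 it ran 6 h, 24 h, 72 h, 1 h, 10 min, sham from highest to lowest, and between neighbours only the step from 72 h to 1 h was called (adjusted p = 0.0419). Has2 ran 72 h, 24 h, 6 h, 1 h, 10 min, sham, with only 72 h against 24 h called. In Cd44 the break fell between 6 h and 10 min (adjusted p = 0.00187), below the 24, 72 and 6 h groups, and in Vcan at the same place (adjusted p = 0.0459), below 72, 24 and 6 h. For Tnfaip6 it fell between 24 h and 1 h (adjusted p = 0.0197). No neighbours in the order of Hyal1 or of Hyal2 differed by the test.

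The rest of the pathway was read from 39 further genes in 6 lists, of which 37 were in the table and 31 could be tested. At 10 min and at 1 h edgeR called 0 of 31, with 2 at an unadjusted p under 0.05 each time; DESeq2 called 0 and 1, and limma 0 and 0. Against sham, 12 were higher and 4 lower at 6 h, 12 higher and 5 lower at 24 h, and 21 higher and 3 lower at 72 h. These are 51.6, 54.8 and 77.4% of the 31 genes, beside 28.4, 43.8 and 66.4% of all genes tested, so the shares at 24 and 72 h are not far from those of all genes. With library totals the counts were 11 and 6, 16 and 2, and 25 and 2. Their median log2 change was 0.37, 0.48 and 1.07 at these times. The genes named below were chosen as the pair with the smallest adjusted p in the F test in each list, so they stand for the strongest calls of their lists.

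Of 7 genes that supply the UDP-sugars, 4 were higher at 6 h, 4 higher and 1 lower at 24 h, and 5 higher and 1 lower at 72 h (all genes: 28.4, 43.8 and 66.4% called). Gfpt1, the rate-limiting enzyme of hexosamine synthesis, went from 22.2 CPM in sham to 34.1 at 24 h (log2 0.62, edgeR adjusted p = 0.00100) and 46.4 at 72 h (1.07, adjusted p = 8.13e-07). Ugp2, which makes UDP-glucose, went the other way, from 191 CPM to 110 CPM at 72 h (-0.80, adjusted p = 4.69e-07). With library totals the 72 h change was -0.21 (adjusted p = 0.0491), and the 24 h change went from -0.37 (adjusted p = 0.00361) to -0.18 (adjusted p = 0.135).

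The list of the other synthase, hyaluronidases and lysosomal glycosidases had 5 tested genes, of which 1 was higher and 2 lower at 6 h, 1 higher and 1 lower at 24 h, and 4 higher and 1 lower at 72 h (all genes: 28.4, 43.8 and 66.4% called). Gusb encodes a lysosomal enzyme that trims hyaluronan fragments from their ends, and was highest at 72 h. Gusb went from 23.2, 23.0 and 25.4 CPM to 141, 148 and 147 CPM (2.61, SE 0.10, adjusted p = 2.55e-12), with a smaller rise of 0.64 at 24 h (adjusted p = 1.05e-04). Lysosomes are abundant in macrophages, and macrophage markers summed to 2583 to 3422 CPM in the same libraries; their part in this change was not tested.

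Of 5 other receptors, 1 was higher and 1 lower at 6 h, 2 higher and 1 lower at 24 h, and 3 higher and 1 lower at 72 h (all genes: 28.4, 43.8 and 66.4% called). Stab1, a scavenger receptor that takes up hyaluronan, went from 87.9 CPM to 71.1 CPM at 6 h (-0.31, adjusted p = 0.0403) and to 481 CPM at 72 h (2.45, adjusted p = 6.02e-12). Hmmr, which binds hyaluronan but is better known as a mitotic spindle protein, had 2, 3 and 0 counts in sham and 406, 490 and 398 at 72 h (adjusted p = 7.76e-09). Cycling-cell markers summed to 1.50 to 3.18 CPM in sham and 175 to 258 CPM at 72 h, and 4 of 4 were called higher.

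Of the other lecticans and link proteins 3 could be tested; edgeR called 0 at 6 h and at 24 h (0 and 1 at an unadjusted p under 0.05), and 2 higher at 72 h, where 66.4% of all genes were called. DESeq2 called Acan at 24 h (1.63, adjusted p = 0.0471). Acan, the aggrecan of cartilage, gave 0.152, 0.311 and 0.355 CPM in sham and 0.662, 3.96 and 2.86 CPM at 72 h (3.16, SE 0.62, adjusted p = 2.21e-04). Hapln4, a link protein, had 2 counts in sham and 11, 12 and 13 in the 72 h libraries, a ratio of 11.5 (95% Poisson interval 2.97 to 99.0, counting error only; edgeR adjusted p = 0.00314).

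Of 5 tested partners of heavy-chain transfer, 3 were higher and 1 lower at 6 h, 1 higher and 1 lower at 24 h, and 4 higher at 72 h (all genes: 28.4, 43.8 and 66.4% called). Ptx3, a pentraxin that binds TSG-6 and the heavy chains, gave 0.607, 0.207 and 0.489 CPM in sham and 129, 51.9 and 56.8 CPM at 6 h (7.48, SE 0.80, adjusted p = 3.36e-05). At 72 h its mean was 12.4 CPM (4.81, adjusted p = 1.46e-04), with all 3 libraries above every sham library. Itih5, which carries a heavy-chain domain, was lower by 0.98 at 6 h and by 1.83 at 24 h (adjusted p = 0.00385 and 1.70e-05) and higher by 0.51 at 72 h (adjusted p = 0.0421).

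Of 6 proteases that cleave versican, 3 were higher at 6 h, 4 higher and 1 lower at 24 h, and 3 higher at 72 h, the last a smaller share than the 66.4% of all genes called. Adamts4 gave 0.354, 0.104 and 0.489 CPM in sham, 167, 67.2 and 49.9 CPM at 6 h and 31.4, 51.3 and 31.2 CPM at 72 h (log2 8.17, SE 1.04, adjusted p = 1.28e-04 at 6 h, and 6.85, adjusted p = 6.35e-05 at 72 h). Adamts1 gave 51.2, 45.0 and 55.8 CPM in sham and 123, 121 and 140 CPM at 1 h, groups that do not overlap, though the difference of 1.34 was not called by edgeR (adjusted p = 0.0894). It was called by DESeq2 (adjusted p = 1.32e-04) and by edgeR with 6 h replicate 1 and 24 h replicate 3 left out (adjusted p = 4.94e-06). Adamts1 was higher at 6 h by 2.80 (adjusted p = 1.72e-05) and at 24 h by 1.54 (adjusted p = 6.52e-04), and stood at 49.5, 59.6 and 46.5 CPM at 72 h (0.03, adjusted p = 0.925). For these genes, as for Has1, Cd44, Vcan and Tnfaip6, the highest 6 h library was replicate 1.

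**Figure D4:**
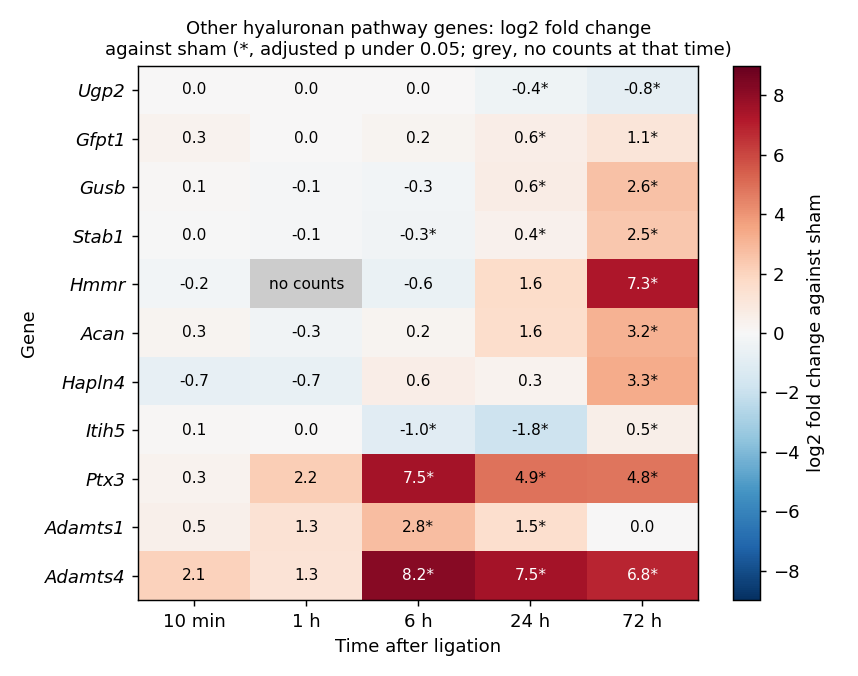
Log2 fold change against sham of 11 further pathway genes named by the rule (rows) at each time after ligation (columns); numbers are the changes to 1 decimal, a star marks an adjusted p under 0.05 and grey marks a group with no counts. Ptx3 and Adamts4 change most at 6 h (7.48 and 8.17), and Gusb, Stab1 and Hmmr at 72 h.

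The genes whose profile over the 18 libraries was most like that of each member are given as a description, since all correlations run over the same libraries and groups and so share their time course and depth. By Pearson's r of log2 CPM, Has1 was closest to Sphk1 (0.965), Arid5a (0.960) and Ch25h (0.959). Has2 was closest to Unc13d (0.957), Basp1 (0.953) and Actr3 (0.952), and Vcan to Glipr2 (0.984), Tpm4 (0.983) and Hcls1 (0.983). Cemip was closest to Aspm (0.985), Ctsb (0.980) and Lipa (0.977). Cd44 followed Csf2rb (0.988), Ccr1 (0.985) and Met (0.984), and Tnfaip6 followed Pgm2 (0.977), H3f3b (0.966) and Sowahc (0.965). The profiles of the hyaluronidases were less closely matched, with at most 0.892 for Hyal1 (Bbs9) and 0.878 for Hyal2 (Wipf2). Among the members themselves, Has1 was closer to Tnfaip6 (0.905) than to Has2 (0.620), and Has2 was closest to Vcan (0.921).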

How the data were processed

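Read counts per Ensembl gene and FPKM values were deposited by the authors for 18 poly(A)-selected libraries. The submitters' processing notes name cutadapt 1.18, HISAT2 2.1.0, featureCounts and mm10, with no roles; use of strand is not given in the sources used here. The deposited FPKM are these counts scaled by gene length and library total; the FPKM columns of 6 h replicates 2 and 3 held each other's counts and were exchanged. FPKM served only in limma alternatives, on log2(FPKM + 1) or log2(FPKM + 0.1), where a fold change understates the change of low genes. Libraries held 18199172 to 25062351 counts, with no mention of molecular identifiers, so limits and intervals cover counting error only. The labels do not state how mice were allotted to batches, and p-values weigh differences between groups against the spread between these libraries.

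The counts as deposited were filtered with filterByExpr (16311 genes kept, 14272 removed), scaled by TMM and fitted in edgeR 4.0.16 (R 4.3.3; glmQLFit, robust, 1 mean per group, all 18 libraries), with two-sided glmQLFTest. The pipeline was tested on simulated data. Alternatives were other scalings and filters, DESeq2 1.42.0, limma 3.58.1, a replicate block, the 6 compared libraries alone and each library left out. Symbols and coordinates come from GENCODE M21 and promoters from RefSeq (GRCm38.p6), with 8 of 9 members matched. All 9 members are named; from every other list, the pair of tested genes ranked first by the F test, of which 1 gene is not reported here; and for likeness, the 3 genes of at least 1 CPM with the highest Pearson r on log2 CPM (prior count 2). The members, lists and tests were chosen with earlier results of these data known.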

Additional observations from a re-analysis of the deposited data

How the results depend on the processing

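Of 77 changes of single genes fitted under 29 alternatives (2198 values), 2093 kept their side of the threshold, 44 of these with a changed sign where neither fit made a call; 29 lost the call, 67 gained one and 9 changed sign with a call in either fit. The counts of called members against sham stayed within 1.5 times of the reported ones in every alternative, with 6 to 7 at 6 h, 6 to 8 at 24 h and 6 at 72 h when 1 library was left out. The later steps were less stable. For 24 h against 6 h (0 with all libraries), 3 members were called with library totals, 3 in each of the limma fits on log2(FPKM + 1) and log2(FPKM + 0.1), 1 with limma and no filter, and 0 to 2 with 1 library left out (1 without 6 h replicate 3 or 24 h replicate 1, 2 without 24 h replicate 3). For 72 h against 24 h (3), 5 were called with library totals and in each of 3 limma fits, 1 with at least 10 counts required in every library, 1 with only the 6 libraries compared, and 1 (without 72 h replicate 3) to 5 (without 24 h replicate 3) with 1 library left out. For 72 h against 6 h (4), 7 were called with library totals and in each of 3 limma fits, and 1 with at least 10 counts. With 6 h replicate 1 and 24 h replicate 3 both left out, added after seeing the data, the calls against sham were 6, 7 and 6 at 6, 24 and 72 h, and 2 members were called for 24 h against 6 h and 6 for 72 h against 24 h. For 6 h against 1 h (6), limma without a filter called 3. With at least 10 counts in every library only 5 members were tested; the F test called 5 and the 15 pairs of groups summed to 39 calls in place of 64. Hyal2 reversed for 72 h against 24 h (0.12 with library totals; 0.11, 0.12 and 0.11 in the limma fits) and for 72 h against 6 h (0.50 with library totals; 0.46, 0.49 and 0.46 in the limma fits), and Cd44 for 72 h against 24 h (0.65 with both libraries left out). Against sham, scaling by library totals took the median gene from -0.01 to -0.12 (6 h), from 0.01 to 0.20 (24 h) and from 0.03 to 0.61 (72 h). The higher genes among all calls went from 57.2 to 40.6%, from 54.0 to 75.5% and from 51.4 to 79.9%. The causes of the other shifts were not tested. The replicate numbers did not pair the libraries: same-numbered libraries deviated together (r over 0.1) in 4 of 45 pairs, with r from -0.26 to 0.25. With the replicate block, Has2 at 72 h against 24 h was not called (1.01, adjusted p = 0.0525) and Has1 was (-1.16, adjusted p = 0.0494); no other member's call changed. Has1, Has2 in sham, Cemip before 72 h and Hapln1 rest on few counts, which limits what their early changes can show.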
